A study of Mus musculus with 2 samples.

Results

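The cells described here are lung pericytes of mice carrying breast tumour cells in the lung, and they numbered 55 of the 3410 cells kept from 2 single-cell RNA libraries, 16 of 1423 niche cells and 39 of 1987 distal lung cells. They were chosen by their own transcript counts (unique molecular identifiers, UMIs). A member had at least 4 UMIs summed over Higd1b, Cox4i2, Postn and Pdzd2, and more of these than of the endothelial genes Pecam1, Cdh5, Cldn5, Egfl7 and Ramp2. It also had under 3 UMIs of the adventitial fibroblast genes Pi16, Igfbp6, Scara5 and Entpd2, under 3 of the myofibroblast-type genes Hhip, Aspn, Mustn1 and Enpp2, and under 10 of Cxcl9 and Timp1. What these genes do within the members is therefore a description and not a finding. The niche group is CD45- cells of mouse lung from near the tumour cells, and the distal group is CD45- cells of the lung away from them. Both were collected on day 7 following an intravenous dose of Labelling-4T1, a mouse mammary carcinoma line engineered so that the tumour cells pass a fluorescent protein to the cells around them. Every animal in both groups had thus received tumour cells, and there was no group without them. The labels give no strain, age or number of animals, and leave out by what criterion the niche and distal fractions were set apart.

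Pericytes are mural cells that sit in the basement membrane of capillaries, in contact with the endothelium. Endothelial platelet-derived growth factor B recruits and keeps them through the receptor PDGFRB, Notch ligands on the endothelium act on NOTCH3, and nitric oxide from the endothelium acts on the soluble guanylyl cyclase that makes cyclic GMP in them. In the lung they line the alveolar capillary bed, carry little smooth muscle actin at rest, and have been traced as one source of matrix-producing cells after injury.

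The kept cells held 5139368 UMIs (niche) and 4781222 UMIs (distal), with medians of 2975 and 1975 per cell. The members held 56930 niche UMIs, with a median of 2659 per cell (1471 to 8648), against 64637 distal UMIs, with a median of 1553 (905 to 3348). With 1 library per group there was no replicate check and no test, cells were not treated as replicates, and every interval covers counting error only. The libraries shared 7 cell barcodes, none of them a member's. A ratio was given only for the 10198 genes listed in both tables, and was scaled to their UMIs. Genes were called higher or lower in niche cells at a 2-fold ratio with an exact 95% interval that left out equality.

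Higd1b or Cox4i2 was detected in 45 of the 55 members, and of the other 10 members 9 carried fibroblast genes in place of most pericyte genes. These genes encode mitochondrial proteins, a hypoxia-induced family member and a subunit isoform of cytochrome c oxidase, and both mark lung pericytes. At least 1 UMI of either was found in 12 of 16 niche members and in 33 of 39 distal members. All 4 genes of the rule were detected together in 9 niche members and 26 distal members. In the 45 cells, Higd1b had between 0 and 16 UMIs per niche cell with a median of 2.5, against 0 to 9 with a median of 3 in distal cells, and Cox4i2 had 1 to 22 with a median of 9, against 1 to 21 with a median of 6. These are 1750 and 2234 CPM of Higd1b (UMIs of common genes scaled to the same total in each group), and 3750 and 5127 CPM of Cox4i2. Endothelial cells held 5.15 CPM of Higd1b (niche) and 4.27 CPM (distal), the level that stray RNA could give.

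The 10 members without Higd1b and Cox4i2 entered the rule through Postn, a secreted matricellular protein, or Pdzd2, a protein with PDZ domains. The 4 niche cells had 3, 4, 5 and 15 UMIs of Postn, and carried fibroblast matrix genes: Mgp, an inhibitor of calcification, at 61 to 364 UMIs per cell, and Col1a1, a chain of collagen I, at 13 to 45. Of the 6 distal cells, 5 had 4 or 5 UMIs of Pdzd2 and carried the lipofibroblast genes Mfap4 (15 to 121 UMIs per cell), Inmt (9 to 84) and Tcf21 (3 to 16). The remaining distal cell had 8 UMIs of Pdzd2 and 5 of Postn, none of those fibroblast genes at such levels, and 148 UMIs per 10000 of the pericyte genes that the rule did not use. That value lay inside the range of the 33 distal cells with Higd1b or Cox4i2 (62.4 to 305, median 189), while the other 5 distal cells lay between 10.5 and 35.8. The 4 niche cells lay between 18.5 and 61.8, against 45.9 to 214 (median 149) in the 12 niche cells with Higd1b or Cox4i2. Pdgfrb, the growth factor receptor of pericytes and of some fibroblasts, was present in all 4 of those niche cells (2 to 7 UMIs), and had 0 UMIs in the 6 distal cells. Results below are therefore given for the 45 cells, called the Higd1b or Cox4i2 cells, a set chosen after the values were seen, with those of all 55 members beside them. At the limit itself, cells with 3 UMIs of the 4 genes (2 niche and 5 distal) stayed out, and of these 2 niche and 0 distal cells had Higd1b or Cox4i2. No niche cell and 3 distal cells had exactly 4, and 2 niche and 2 distal cells had 5. None of the cells at 4 or 5 had Higd1b or Cox4i2.

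**Figure D1:**
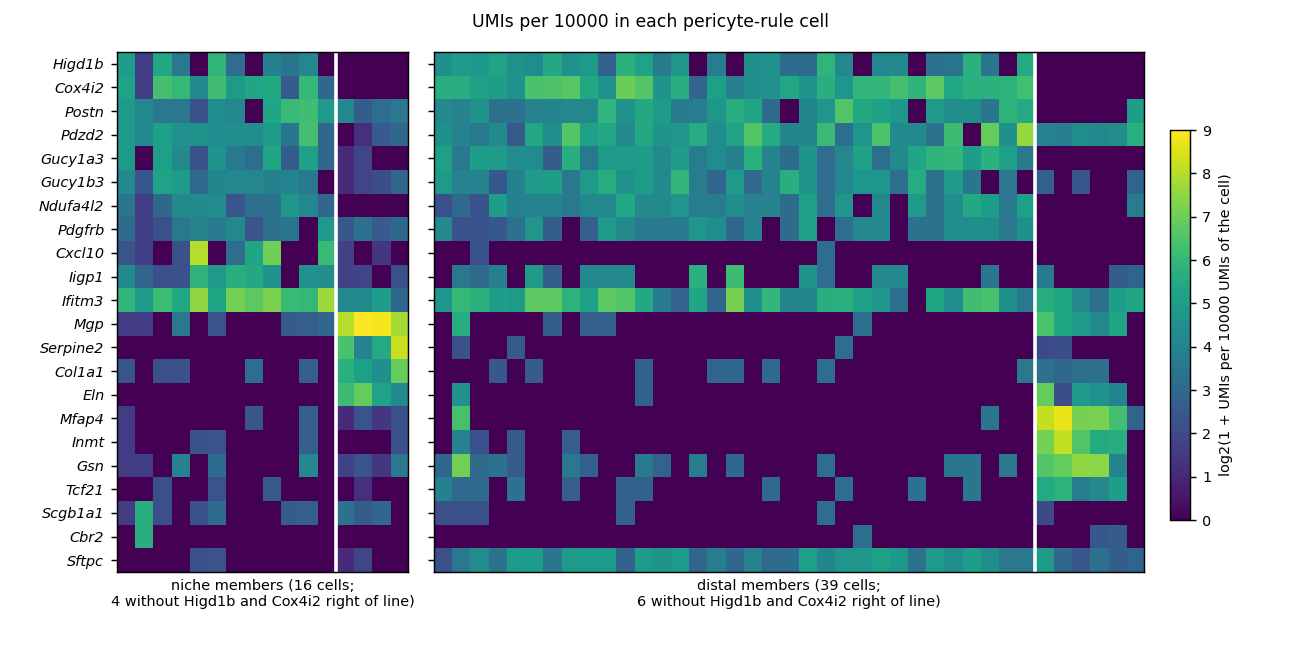
Level of each gene in each member, as log2 of 1 plus UMIs per 10000 UMIs of the cell, with 1 column per cell, the 16 niche members left of the 39 distal members, and members without Higd1b and Cox4i2 to the right of the white line. The 4 niche and 5 of the 6 distal cells to the right of the lines carry fibroblast genes and little or no Ndufa4l2 or Gucy1a3.

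The members were 1.12% of kept niche cells (exact Clopper-Pearson 95% interval 0.644 to 1.82%) and 1.96% of kept distal cells (1.40 to 2.67%), so the intervals overlapped. Most of this gap came with the limits of the rule. At least 4 pericyte UMIs were found in 52 niche and 47 distal cells, and 47 niche and 42 distal cells also had more of these than of the endothelial genes. Of these 47 and 42 cells, the limits left out 31 niche cells against 3 distal cells. Of the cells left out, 14 niche and 2 distal cells had Higd1b or Cox4i2. Mustn1, a small nuclear protein of muscle and cartilage, reached the limit by its own UMIs in 15 niche and 3 distal cells. Cxcl9, an interferon-induced chemokine, did so in 12 niche cells and 0 distal cells. Other genes could reach the limit in the same cells: of 19 niche cells over the Mustn1 group's limit, Aspn reached it in 9 and Enpp2 in 6. With no limits the Higd1b or Cox4i2 cells were 26 niche cells, or 1.83% (1.20 to 2.67%), and 35 distal cells, or 1.76% (1.23 to 2.44%). The share of Higd1b or Cox4i2 cells among all kept cells, counted with no limits, thus did not differ detectably at this depth. Against fibroblasts the shares stood far apart: the members were 2.11% (1.21 to 3.41%) of members and fibroblasts together in the niche and 10.5% (7.60 to 14.1%) in the distal lung, where fibroblasts were 741 of 1423 niche cells and 331 of 1987 distal cells. For the Higd1b or Cox4i2 cells these shares were 1.59% and 8.92%. All shares against fibroblasts were counted with the limits of the rule in place and not without them. Cells that the limits left out could also be among the fibroblasts. Shares can also be set by how cells were sorted, which the labels do not describe, and the deeper niche library gives more UMIs to the rule and to its limits alike.

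**Figure D2:**
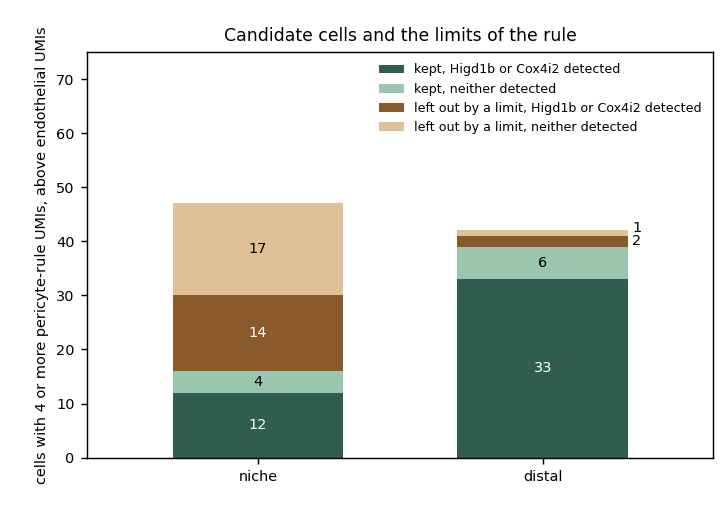
Number of cells with at least 4 pericyte UMIs, and more of these than endothelial UMIs, that became members or were left out by a limit of the rule, niche library left of distal library, split by whether a cell had a UMI of Higd1b or Cox4i2. The limits left out 31 of 47 niche cells and 3 of 42 distal cells.

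Outside the 4 genes of the rule, the Higd1b or Cox4i2 cells stood out by genes of cyclic GMP signalling, of Notch and platelet-derived growth factor signalling, and by Ndufa4l2. These genes were taken from the same cells that the rule chose, so their levels are a description. A gene was called pericyte-high when its CPM was at least 4-fold above alveolar myofibroblasts, adventitial fibroblasts, lipofibroblasts and endothelial cells in each library. This held for 46 of 715 genes, or 6.43%, and for 37 of 1042 genes, or 3.55%, over all 55 members. Among fixed lists it held for 9 of 18 measured pericyte genes outside the rule, 3 of 5 vasoactive genes and 0 of 7 smooth muscle genes.

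Gucy1a3 and Gucy1b3 encode the alpha and beta subunits of soluble guanylyl cyclase, the receptor for nitric oxide. Gucy1a3 had 0 to 15 UMIs per niche cell with a median of 4, and was detected in 11 of 12 niche cells. In distal cells it had 1 to 9 with a median of 3, and was detected in 33 of 33. Gucy1b3 had 0 to 10 with a median of 3.5 in niche cells, against 0 to 10 with a median of 3 in distal cells. Both genes were thus spread over nearly all Higd1b or Cox4i2 cells of both libraries rather than held by a few. Gucy1a3 stood at 1781 CPM in niche cells and 2534 CPM in distal cells, 21.9-fold and 28.4-fold above the highest other cell type. Gucy1b3 stood at 1594 and 2175 CPM, 25.5-fold and 16.7-fold above it. Pde5a, the phosphodiesterase that breaks down cyclic GMP, was 12.6-fold and 11.0-fold above the highest other cell type, at 1031 CPM in niche and 1377 CPM in distal cells.

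The genes of the 2 cyclase subunits are neighbours on mouse chromosome 3, on the minus strand of GRCm38.p6, with 17715 bases and no other gene between them. RefSeq names them Gucy1b1 and Gucy1a1. Because both genes were high in the same cells, their promoters, from 250 bases before the start of transcription to 50 after it, are shown, with CCAAT (or ATTGG, its reverse complement) and TGGGAA (or TTCCCA) in capitals. CCAAT is the box bound by NF-Y, and TGGGAA is the core letters read by the Notch partner RBPJ. The Gucy1b1 promoter lies at chr3:82074662-82074961, minus strand, and the promoter of the second Gucy1a1 start at chr3:82145024-82145323, minus strand.
Gucy1b1: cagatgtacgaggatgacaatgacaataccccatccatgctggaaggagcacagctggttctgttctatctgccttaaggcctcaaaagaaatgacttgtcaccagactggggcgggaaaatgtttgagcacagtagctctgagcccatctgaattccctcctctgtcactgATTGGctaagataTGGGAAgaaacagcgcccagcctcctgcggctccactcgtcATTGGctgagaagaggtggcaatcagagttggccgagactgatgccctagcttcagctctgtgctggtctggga
Gucy1a1, second start: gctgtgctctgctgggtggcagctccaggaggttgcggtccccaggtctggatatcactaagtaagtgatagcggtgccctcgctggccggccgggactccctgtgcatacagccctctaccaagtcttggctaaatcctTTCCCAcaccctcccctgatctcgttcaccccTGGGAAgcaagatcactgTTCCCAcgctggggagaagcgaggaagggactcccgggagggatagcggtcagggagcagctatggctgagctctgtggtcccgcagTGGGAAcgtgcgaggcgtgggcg
CCAAT occurred in the Gucy1b1 promoter 2 times and in that of Gucy1a1 0 times, and TGGGAA 1 time and 4 times. The promoter of the first Gucy1a1 start, at chr3:82145601-82145900, held neither. Among 32851 promoters of 300 bases, 37.4% held CCAAT and 25.6% held TGGGAA on either strand, so neither is rare in a window of this length, and such a match is a description of the letters and not of a binding site.

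Of 9 measured genes of the list of endothelial to pericyte signalling, 2 were pericyte-high, the receptors Pdgfrb and Notch3. Pdgfrb, the receptor for platelet-derived growth factor B, had 0 to 4 UMIs per niche cell and 0 to 5 per distal cell, with medians of 2.5 and 2, and stood at 906 and 1237 CPM, 9.12-fold and 11.6-fold above the highest other cell type. Notch3, the Notch receptor of mural cells, stood at 500 and 758 CPM, 57.9-fold and 10.8-fold above it. F2r, a thrombin receptor, stood at 2031 and 1895 CPM, and Hbegf, an epidermal growth factor family ligand, at 1063 and 818 CPM. The highest ranks by fold over other cell types were held by Lipg, endothelial lipase, at 500 and 399 CPM, followed by Art3 at 375 and 599 CPM and Tmem178 at 406 and 579 CPM. The classical pericyte genes Rgs5, Kcnj8 and Abcc9 were not analysed here.

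**Figure D3:**
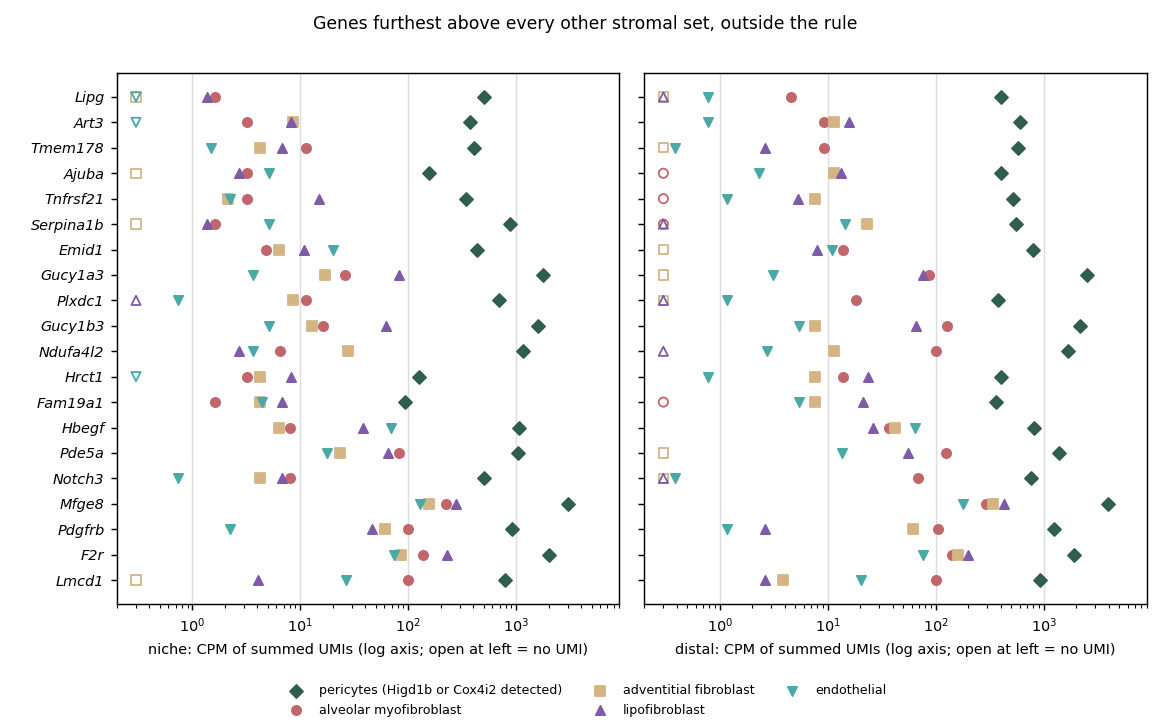
CPM on a log axis of the 20 leading pericyte-high genes in the Higd1b or Cox4i2 cells (diamonds) and in 4 other stromal cell types, niche library on the left and distal library on the right, with open symbols for no UMI. Gucy1a3 and Gucy1b3 lie more than 16-fold above every other cell type drawn in both libraries.

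Ndufa4l2, whose product takes the place of the respiratory chain protein NDUFA4 in hypoxic cells, was detected in 12 of 12 niche cells (1 to 5 UMIs, median 2.5) and in 31 of 33 distal cells (0 to 7, median 3). It stood at 1156 CPM in niche cells and 1676 CPM in distal cells. Ndufa4 itself had 0 UMIs in the 12 niche cells, where 3 UMIs would be 93.8 CPM, and 3 UMIs or 59.9 CPM in the 33 distal cells (exact Poisson interval 12.3 to 175). In every other cell type compared Ndufa4 lay between 369 and 628 CPM, and endothelial cells held 621 CPM (niche) and 628 CPM (distal). The 10 members without Higd1b and Cox4i2 held 327 CPM (8 UMIs) in the niche and 632 CPM (9 UMIs) in the distal library. Ndufa4 was thus low in the Higd1b or Cox4i2 cells and at the level of other cells in the remaining members. The other mitochondrial pairs differed less between cell types: Cox4i1, the common isoform beside Cox4i2, stood at 531 CPM in niche and 718 CPM in distal cells, against 962 and 884 CPM in endothelial cells, and Higd1a, the relative of Higd1b, at 156 and 99.8 CPM, against 167 and 201 CPM.

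In niche against distal Higd1b or Cox4i2 cells, 79 of 1526 genes (5.18%) were called higher and 51 (3.34%) lower, with a median log2 ratio of 0.03. Over all 55 members, 134 of 2258 genes (5.93%) were higher and 141 (6.24%) lower. The higher genes in the Higd1b or Cox4i2 cells were ranked by the interval bound closer to equality. Cxcl10 stood at rank 1, Ly6a at rank 3, and the interferon-induced gene Ifit3 at rank 5. The club cell genes Cbr2, Scgb1a1 and Wfdc2 stood at ranks 2, 4 and 8. All niche UMIs of Cbr2 and Wfdc2 were in 1 cell, which also held 23 of the 30 niche UMIs of Scgb1a1.

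Cxcl10 encodes a chemokine that interferon induces and that draws T cells and NK cells. The 12 niche cells had 0, 0, 0, 0, 1, 1, 2, 2, 9, 10, 27 and 67 UMIs of Cxcl10. Of the 33 distal cells, 2 had 1 UMI each and all others had 0. The high values thus lay in 4 niche cells, and the remaining niche cells overlapped the distal cells. In sum, Cxcl10 stood at 3719 CPM in niche and 39.9 CPM in distal cells, a log2 ratio of 6.23 (95% interval 4.66 to 9.60). Without the cell of 67 UMIs it was 5.16. Its promoter is shown because no other gene of these cells had a larger ratio. It lies at chr5:92348840-92349139, minus strand, GRCm38.p6, in RefSeq, and the capitals mark GAAA repeated after 2 bases of any kind, as in an interferon-stimulated response element, and GGGA followed after 2 bases by TTCC, as in an NF-kB site.
Cxcl10: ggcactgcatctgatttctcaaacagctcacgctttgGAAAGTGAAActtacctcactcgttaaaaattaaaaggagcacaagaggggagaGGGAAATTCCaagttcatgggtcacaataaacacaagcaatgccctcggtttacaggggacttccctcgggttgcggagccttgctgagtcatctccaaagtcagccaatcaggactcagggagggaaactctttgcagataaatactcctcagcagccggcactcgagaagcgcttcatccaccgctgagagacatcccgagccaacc
Each motif occurred 1 time, and 3.44% and 1.47% of the 32851 promoters held them on either strand. The windows marked do not overlap.

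Of 24 measured genes of the interferon response list, 13 were called higher in niche Higd1b or Cox4i2 cells and 0 lower. Over all genes 5.18% were called higher and 3.34% lower. The median log2 ratio of the list was 1.23, against 0.03 over all genes. Ifit3, an antiviral protein that interferon induces, had 23 UMIs in niche and 6 in distal cells, a log2 ratio of 2.50. Irf7, a transcription factor of the interferon pathway, had 11 and 3 (2.36), and Isg15, a ubiquitin-like protein, had 18 and 8 (1.77). The guanylate-binding proteins Gbp2 (2.14), Gbp4 (1.25), Gbp5 (1.93) and Gbp7 (1.21) and the immunity-related GTPases Ifi47 (1.55) and Iigp1 (1.10) were called higher too. Ifit1 had 11 UMIs in niche cells and 0 in distal cells. Genes of the list that were not called include Ifitm3, the most abundant of them, at 273 and 238 UMIs (0.85), and the transcription factor Irf1 (0.33).

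Summed over the 40 listed genes in both tables, the interferon genes held 25469 CPM in niche cells and 10873 CPM in distal cells, a log2 ratio of 1.23 (1.07 to 1.39). Without Cxcl10 it was 1.01. By cell they held 63.2 to 852 UMIs per 10000 in niche cells with a median of 164, against 9.43 to 327 with a median of 68.8 in distal cells. The cells overlapped: 5 of 12 niche cells lay above every distal cell and 11 of 12 above the distal median. With the niche cell of most Cxcl10 left out, the summed log2 ratio was 0.89 and 7 of 20 measured genes were called higher; the other niche cells, left out in turn, gave 1.13 to 1.38. The Higd1b or Cox4i2 cells include 1 niche cell with 78 UMIs of club cell genes and 1 distal cell with 72 of lipofibroblast genes, and without them 14 of 24 genes were called higher, with a median of 1.36. Over all 55 members the list had 6 of 26 genes called higher (5.93% over all genes) and a summed log2 ratio of 0.70. With no limits of the rule, which cap Cxcl9, 20 of 37 were called higher, and the median was 1.38. Of the 2843 genes tested there, 6.47% were higher and 5.31% lower. Among the 14 niche and 2 distal cells added in that set, 6 and 0 had reached the limit on Cxcl9 and Timp1.

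**Figure D4:**
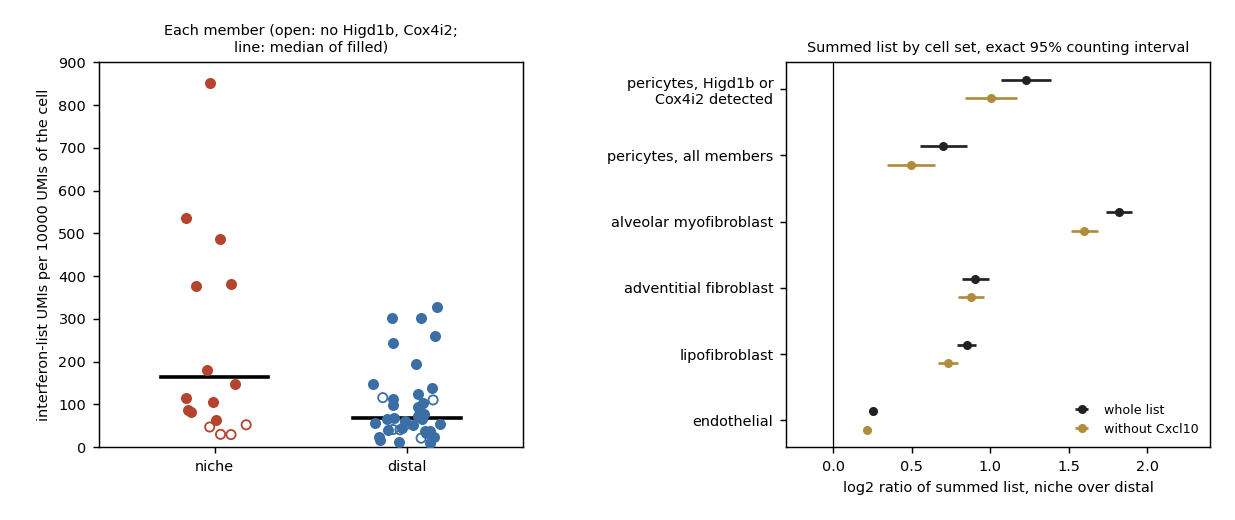
Left, UMIs of the interferon response list per 10000 UMIs in each member, niche left of distal, with open circles for members without Higd1b and Cox4i2 and lines at the medians of the others (164 in niche and 68.8 in distal cells). Right, log2 ratio of the summed list, niche over distal, with exact 95% counting intervals, from 1.82 in alveolar myofibroblasts to 0.25 in endothelial cells.

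Other cell types of the niche library also carried more interferon transcripts. The summed log2 ratio of niche over distal was 1.82 in alveolar myofibroblasts, 0.90 in adventitial fibroblasts, 0.85 in lipofibroblasts and 0.25 in endothelial cells. Cxcl10 on its own was higher in each of them, with log2 ratios of 3.92, 2.32, 3.47 and 1.93. The higher interferon genes were thus not confined to pericytes, and differences between cell types were not tested.

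In the lists of antigen presentation, inflammation and contraction most measured genes were not called, but each list was higher in sum in niche cells. Their counts stand beside 5.18% higher over all genes. The summed log2 ratios were 0.69 (0.52 to 0.87) for MHC class I presentation and 1.06 (0.72 to 1.42) for acute phase and NF-kB. For smooth muscle and contraction it was 0.59 (0.32 to 0.85). Over all members the summed log2 ratios were smaller. They were 0.37 (0.21 to 0.52) for MHC class I presentation and 0.36 (0.093 to 0.63) for acute phase and NF-kB. For smooth muscle and contraction the value over all members was 0.35 (0.12 to 0.58). In that set 2 of 13, 1 of 11 and 2 of 13 genes were called higher and 0 lower. The shares over all genes there were 5.93% and 6.24%. In the Higd1b or Cox4i2 cells ratios were above 0 for 11 of 13, 8 of 8 and 10 of 12 genes, against 788 of 1526 over all genes. Of 13 MHC class I presentation genes, 3 were called higher: the immunoproteasome subunits Psmb8, at 23 and 7 UMIs (log2 ratio 2.30), and Psmb10, at 22 and 12, and the class I gene H2-Q4, at 15 and 9 (1.35). H2-Q4 has near-identical relatives whose reads cannot be kept apart, and the more abundant H2-K1 (0.93), B2m (0.75) and H2-D1 (0.64) were not called. The acute phase and NF-kB list had 8 measured genes and 2 called higher, Icam1, an adhesion molecule for leukocytes, at 9 and 1 UMIs (3.31), and Socs3, an inhibitor of cytokine signalling, at 29 and 21 (1.10). Cxcl14, a chemokine, had 20 and 9 UMIs, of which 14 were in 1 niche cell. Of 12 smooth muscle and contractile genes 3 were called higher: Acta2, smooth muscle actin, at 12 and 1 UMIs (3.71), Csrp1, a muscle LIM protein, at 15 and 6 (1.90), and Tagln, an actin-binding protein, at 16 and 10 (1.30). These are few UMIs in few cells, and Acta2 stood at 375 CPM in niche and 19.9 CPM in distal cells. Lifting the limits of the rule brought in 14 niche and 2 distal cells. Of these, 11 and 2 were over the limit on Hhip, Aspn, Mustn1 and Enpp2. The contractile values with no limits are therefore a description of cells chosen in this way, and not separate support. With no limits of the rule, 7 of 15 contractile genes were called higher and 0 lower (6.47% and 5.31% over all genes). Their summed log2 ratio was then 1.15 (0.97 to 1.34). Acta2 had 157 and 7 UMIs there (3.51), and Tagln 227 and 26 (2.22).

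The genes known from pericytes were mostly not called between niche and distal Higd1b or Cox4i2 cells. Part of them were called lower once the limits of the rule were lifted. Lifting them added 14 niche but only 2 distal cells, each over a limit on fibroblast or myofibroblast-type genes or on Cxcl9 and Timp1. How far these added cells alone lower the values was not tested. Of 20 measured pericyte genes outside the rule, 1 was called higher, the gap junction gene Gja4 at 17 and 10 UMIs (1.38), and 0 lower. Over all genes 5.18% were higher and 3.34% lower. The median log2 ratio of the list was -0.47. The log2 ratios were -0.50 for Gucy1a3 (-0.99 to -0.05), -0.44 for Gucy1b3 (-0.96 to 0.04), -0.44 for Pdgfrb (-1.14 to 0.21) and -0.57 for Notch3 (-1.54 to 0.28). Ebf1, a transcription factor of mural cells, stood at -0.91 and Mcam, an adhesion molecule, at -0.04. With no limits of the rule (26 niche and 35 distal cells), 1 of 22 was called higher and 9 lower, with a median of -0.96. Over all genes tested in that set 6.47% were higher and 5.31% lower. In that set Gucy1a3 stood at -1.39 (-1.79 to -0.99), Gucy1b3 at -1.39 (-1.83 to -0.96) and Ndufa4l2 at -1.28 (-1.76 to -0.82), each called lower. Pdgfrb at -0.69 was not called. The genes of the rule Higd1b (-1.30) and Cox4i2 (-1.23) were lower there too. Over all 55 members 7 of 22 were called lower, against 6.24% over all genes, with a median of -0.85. Of the 16 niche members, 4 are the fibroblast-gene cells described above. The respiratory chain had 0 of 34 genes called in either direction and a median of 0.16.

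The result for matrix genes depended on which cells were counted. Over all genes the shares called higher and lower were 5.93% and 6.24% in the 55 members, and 5.18% and 3.34% in the Higd1b or Cox4i2 cells. Over all 55 members, 13 of 21 interstitial matrix genes were called higher and 2 lower, with a median log2 ratio of 1.41. In the Higd1b or Cox4i2 cells 1 of 11 was called higher, the collagen cross-linking enzyme Loxl2 at 9 and 2 UMIs, and 1 lower, Mfap4 at 3 and 23 UMIs, 22 of them in the 1 distal cell with lipofibroblast genes, and the median was 0.12. Between these sets lie the 10 other members: Mgp had 931 UMIs in niche and 75 in distal members, but 9 and 17 in the Higd1b or Cox4i2 cells. Col1a1 had 122 and 17 UMIs over all members and 7 and 8 in those cells. Lifting the limits brought in 14 niche and 2 distal cells that had been over a limit. With no limits of the rule, 15 of 23 interstitial matrix genes were called higher and 0 lower in Higd1b or Cox4i2 cells. Over all genes tested there 6.47% were higher and 5.31% lower. The median was 1.82, and Mgp had 558 and 97 UMIs (1.63). In the cells that the limits kept, the summed log2 ratio was -0.02 (-0.36 to 0.31). Without the niche cell with club cell genes and the distal cell with lipofibroblast genes, it was 0.54 (0.17 to 0.90). The median was then 0.70, with 1 of 10 genes called higher and 0 lower (5.33% and 2.63% over all genes). Basement membrane genes, which pericytes make together with endothelium, had 0 called higher and 1 lower of 11 in the Higd1b or Cox4i2 cells. The shares over all genes were 5.18% and 3.34%. Col4a1, a chain of collagen IV, had 58 and 54 UMIs (0.75) and Sparc, a collagen-binding protein, 204 and 339 (-0.08).

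Other leading genes include Ly6a, the surface protein Sca-1 that interferon also induces, at 34 UMIs in niche and 3 in distal cells (log2 ratio 3.95), Gpx3, a secreted glutathione peroxidase, at 111 and 83 (1.06), and S100a11, a calcium-binding protein, at 67 and 40 (1.38). Actb, cytoplasmic actin, had 494 and 322 UMIs (1.26), of which 151 were in 1 niche cell. Ly6a stood at 3.73 in alveolar myofibroblasts, 1.47 in adventitial fibroblasts, 0.67 in lipofibroblasts and 0.62 in endothelial cells on the same scale. Among lower genes, Gfra2, a receptor of neurturin, had 2 UMIs in niche and 31 in distal cells (-3.01), Adk, adenosine kinase, had 4 and 27 (-1.96), Klf4, a transcription factor of immediate early type, had 6 and 32 (-1.67), and Prex2, an activator of the GTPase Rac, had 13 and 49 (-1.23).

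**Figure D5:**
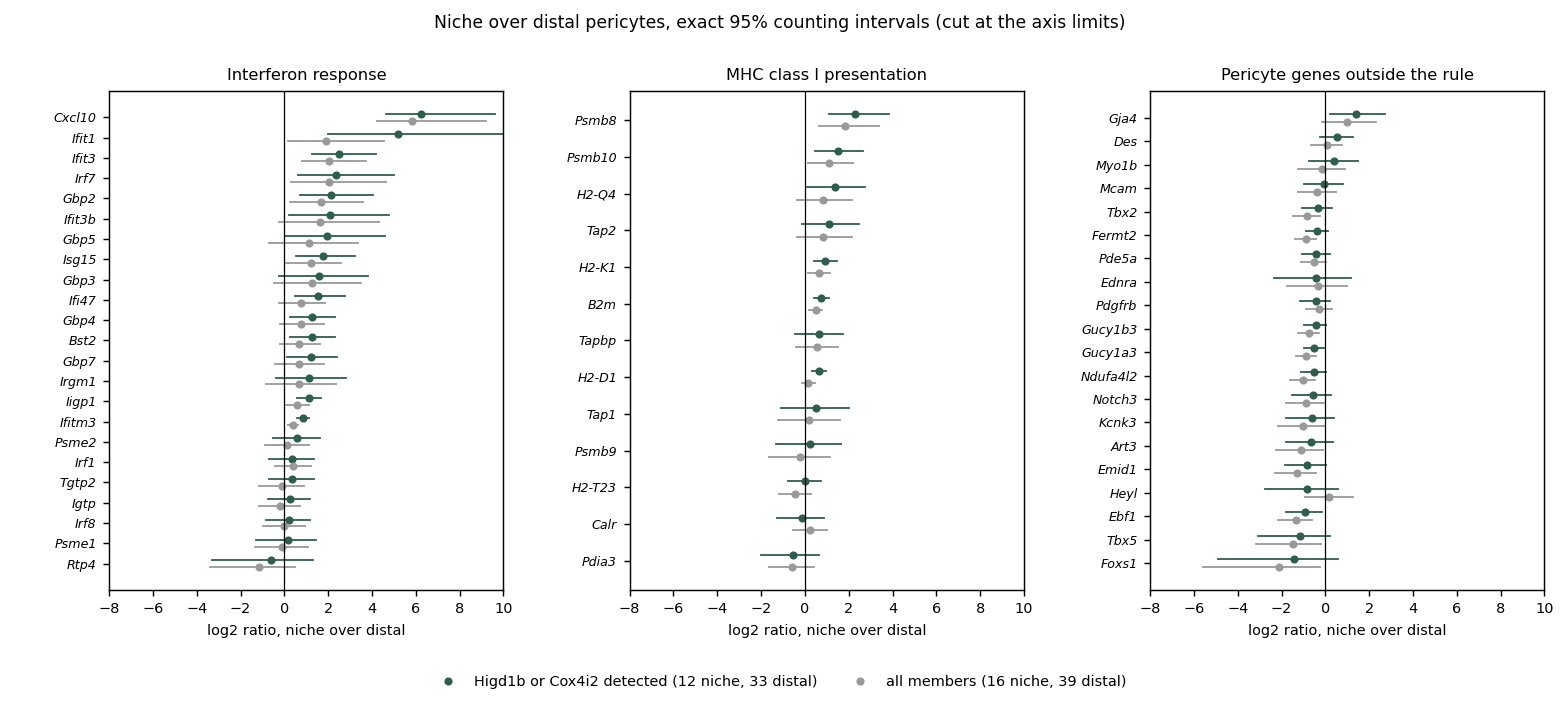
Log2 ratio of niche over distal cells for measured genes of 3 lists, with exact 95% counting intervals, for the Higd1b or Cox4i2 cells (green) and all members (grey). Among the Higd1b or Cox4i2 cells Cxcl10 stands highest at 6.23, and the median of the pericyte genes outside the rule is -0.47.

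Genes of other cell types moved along with the libraries. Sftpc, a surfactant protein of alveolar type 2 cells, had 2 UMIs in niche and 95 in distal Higd1b or Cox4i2 cells (-4.61), and stood at -4.37, -5.83, -5.75 and -3.62 in alveolar myofibroblasts, adventitial fibroblasts, lipofibroblasts and endothelial cells. Scgb1a1, a secreted protein of club cells, was higher at 30 and 5 UMIs (3.12), with 23 UMIs in 1 niche cell, and stood at 2.14, 1.26, 1.74 and 2.05 in those cell types. The alveolar type 2 list summed to 301 CPM in niche and 2501 CPM in distal members, against 570 and 5942 CPM in endothelial cells. The endothelial list summed to 1009 CPM in niche and 1616 CPM in distal members, against 26777 and 28957 CPM in endothelial cells. Of its 21 genes, 15 were detected in niche and 12 in distal members. Ednrb, Kdr, Tek, Vwf and Emcn were at 0 in the members of both libraries. The immune list had 6 UMIs in niche and 15 in distal members, with Ptprc at 0 in the niche members. Of its 15 genes, 10 are listed for the niche and 6 for the distal library, so these sums do not cover the same genes. The part of these transcripts in the results was not tested.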

How the data were processed

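The deposited values are raw UMI counts without normalization, given by the authors per gene and cell; the submitters' processing notes name Cell Ranger 2.1.1, R 3.4.1 and mm10. Cells needed 500 genes and no more than 10% mitochondrial UMIs. Scrublet (scanpy 1.11.5) marked 13 niche and 21 distal cells as doublets, none a member, and all were kept. UMIs were summed over members, 0.5 UMI was added to each sum for log2 ratios, and genes with 10 UMIs over both sums were compared. Intervals were exact (conditional binomial, Poisson, Clopper-Pearson, by scipy 1.17.1). The interval of the ratio was tested on simulated Poisson sums. These hold no spread between cells, so that test does not cover such spread. By rule the text names the top 12 genes in each direction (ranked by the bound closer to equality, with 20 UMIs), leading members of 28 lists, the genes of the rule, the 20 highest pericyte genes and 3 paralog pairs; not all are reported here. Members, lists and the rule for named genes were chosen with earlier results of these data known, and the Higd1b or Cox4i2 set after its values were seen. Cell types for comparison took at least 4 UMIs of their own marker genes (8 for endothelial cells, and 5 for the fibroblasts used in the shares). Alveolar myofibroblasts, adventitial fibroblasts and lipofibroblasts also needed under 10 UMIs of Cxcl9 and Timp1, and endothelial cells did not. Coordinates and promoters are of GRCm38 (RefSeq).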

Additional observations from a re-analysis of the deposited data

How the results depend on the processing

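No paired analysis was possible because each group had 1 library. The main counts over all 55 members were 134 genes higher and 141 lower. They were 62 and 59 with 30 UMIs per gene, 42 and 29 with cells thinned to 1200 UMIs, 69 and 54 without cells with an endothelial UMI, 203 and 217 with no limit on Cxcl9 and Timp1, and 64 and 67 at a 4-fold threshold. In sets added after the data were seen, they were 79 and 51 in the Higd1b or Cox4i2 cells, 75 and 37 without 2 of these with club or lipofibroblast genes, and 207 and 228 with no limit on Hhip, Aspn, Mustn1 and Enpp2. TMM scaling gave 155 and 114 (57.6% of calls higher, 48.7% in the main count) and median-of-ratios scaling 95 and 200 (32.2%); median-of-ratios scaling moved the median of all genes by -0.19. In the Higd1b or Cox4i2 cells these scalings gave 50.8% and 54.7% of calls higher, against 60.8%.

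The median of the interferon list was 0.68 over all members. It was 0.49 with median-of-ratios scaling and with 30 UMIs per gene, 0.89 after thinning, 0.90 at 3 pericyte UMIs, 1.17 without endothelial UMIs, 1.64 with no limit on Cxcl9 and Timp1, 1.28 with each cell scaled alike, and 0.92 without the deepest member of each library. In the added sets it was 1.23, 1.36, 0.37 and, with no limits, 1.38. The distal share was 1.33% with 1000 genes per cell and 1.26% without endothelial UMIs, and the niche share 1.83% with no limit on the Mustn1 group or with no limits.

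Directions turned for Csrp1 (1.41 at 6 pericyte UMIs, 1.90, 1.72 and 2.25 in the added sets). Without endothelial UMIs they turned for the interstitial matrix median (-1.24), Mgp (-2.12), Col1a1 (-0.88), Igfbp7 (-2.26), Col3a1 (-0.31), Art3 (0.045), Tbx5 (0.23) and Tgtp2 (1.52). That setting leaves out all 4 niche members without Higd1b and Cox4i2, which held 922 of the 931 niche UMIs of Mgp. In the Higd1b or Cox4i2 cells directions turned for Mgp (-0.23), Igfbp7 (-0.038) and the immediate early median (0.048, and 0.010 without the 2 cells). With no limit on the Mustn1 group Sod3 was 0.74, and with no limits Mfap4 was 0.27, Inmt 1.27, Gsn 0.19, Pcolce2 0.55, Plpp3 0.0065 and Sod3 1.64. The cause was not tested. Few cells and few UMIs limit every value.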

Other observations

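Some pericyte genes are listed in 1 table only, so no ratio was given. In the distal table the Higd1b or Cox4i2 cells held all member UMIs of Vtn (vitronectin, 36 UMIs in 21 cells), Fam162b (40 in 18), Vsnl1 (28 in 20), Gap43 (19 in 15) and Rgs4 (10 in 9). In the niche table Cspg4, the NG2 proteoglycan of pericytes, had 8 UMIs in 5 members, 2 of them in the Higd1b or Cox4i2 cells, while Fst, which encodes the activin inhibitor follistatin, had 41 UMIs in 4 members and none in those cells. Fam26f had 21 UMIs in 4 niche members, all with Higd1b or Cox4i2.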
